A study of Mus musculus with 2 samples.

Results

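The 10 genes described here carry out antigen presentation by MHC class I, and they were taken by symbol from the 33696 genes listed in both single-cell libraries. They comprise the heavy chains *H2-K1*, *H2-D1* and *H2-T23*, the light chain *B2m*, the peptide-loading genes *Tap1*, *Tap2* and *Tapbp*, the immunoproteasome subunits *Psmb8* and *Psmb9*, and the regulator *Nlrc5*. All 10 were detected, and their values were compared across tumor-like states and immune cells of both libraries. The untreated (UT) library came from CT26 tumors, a mouse colon carcinoma line grown under the skin of male BALB/c mice, and the BUP library from such tumors given BUP-Gel, a hydrogel that releases the local anesthetic bupivacaine. The study's methods give an age of 6 to 8 weeks for the mice and a dose of 40 mg/kg. Each library pooled the tumors of 3 mice. Live CD45+ and CD45- cells were sorted and mixed, 4 to 1 by the labels and 3 to 1 by the methods, so the balance of immune and tumor cells was set by the sort. With 1 library per group there is no replicate check. Every interval given is an exact 95% interval that covers counting error only, and a difference between UT and BUP is a difference between these libraries.

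Class I molecules sit on nearly every nucleated cell and show peptides from the cell's own proteins to CD8+ T cells. The proteasome makes the peptides, the transporter of Tap1 and Tap2 carries them into the endoplasmic reticulum, and tapasin, the product of *Tapbp*, helps to load them onto a heavy chain paired with B2m. Interferon gamma, made by T and NK cells, acts in part through Irf1 to raise many of these genes, among them *Psmb8* and *Psmb9*, whose products replace the standard subunits Psmb5 and Psmb6 in the immunoproteasome. In tumors, loss or low expression of these genes is a known route of escape from T cells.

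The UT library held 7163 kept cells with a median of 8430 unique molecular identifiers (UMIs, each counting 1 captured RNA molecule), and the BUP library 6776 cells with a median of 10420. The libraries shared 68 barcodes among kept cells. Clustering used the 2000 most variable genes with class I genes left out. Groups were named from their markers as rebuilt here, so they may differ from the study's own names. Tumor-like cells numbered 1076 in UT and 2371 in BUP, and immune cells 5457 and 3710. *Ptprc*, which encodes CD45, had a UMI in 4.00% of tumor-like cells and 87.4% of immune cells. Clusters were called immune by *Ptprc*, so this split follows from the naming. Genes of the host's Y chromosome stood at 0.915 CPM in tumor-like cells against 155 in immune cells. Another 3 clusters carried markers of both tumor and immune or of both T and myeloid cells and were left out. CPM values are a gene's UMIs scaled to all UMIs of the cell class, and are compared within a gene, not between genes.

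Of the 10 genes, 8 lie on mouse chromosome 17 in the major histocompatibility complex (positions of the GRCm39 build). *Psmb9* (17:34400960-34406738, minus strand), *Tap1* (17:34405996-34416199, plus), *Psmb8* (17:34416690-34420428, plus) and *Tap2* (17:34422501-34435829, plus) form 1 block. The gene models of *Psmb9* and *Tap1* overlap by 743 bases, and whether counting used strand is not given in the sources used here. *Tapbp* (17:34134873-34148267, plus) and *H2-K1* (17:34214987-34219321, minus) lie on one side of the block, and *H2-D1* (17:35481691-35486475, plus) and *H2-T23* (17:36340229-36345571, minus) on the other. *B2m* is on chromosome 2 (2:121977957-121983594, plus) and *Nlrc5* on chromosome 8 (8:95160984-95253900, plus). BALB/c cells carry the H-2d haplotype, whereas the reference genome is that of C57BL/6, which carries H-2b, so reads of the heavy chains were counted against another strain's alleles. *H2-K1*, *H2-D1* and the related H2-Q genes are near-identical copies, and the split of reads among them is uncertain.

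RefSeq promoter windows on the GRCm38 build were held for 8 of the 10 genes, with none for *Tap2* and *Nlrc5*. The 5 windows printed cover a heavy chain of narrow and one of wide range over cell classes, the light chain, a transporter subunit and an immunoproteasome subunit. Each runs 5′ to 3′ along the gene's strand over 250 bases, and capitals mark matches to GGGATTCCC (a kappa B-type motif), GAAANNGAA (the core of an interferon-stimulated response element), TTCNNNGAA (a gamma-activated motif), TGACG (part of the X2 box) or CCAAT, read on both strands.
H2-K1 promoter window, chr17:34000348-34000597, strand -: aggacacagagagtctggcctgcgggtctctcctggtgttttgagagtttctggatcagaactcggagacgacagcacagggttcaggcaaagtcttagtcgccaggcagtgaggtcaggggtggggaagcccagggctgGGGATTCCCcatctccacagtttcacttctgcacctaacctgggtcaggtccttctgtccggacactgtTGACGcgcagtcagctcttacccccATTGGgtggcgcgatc
H2-T23 promoter window, chr17:36032702-36032951, strand -: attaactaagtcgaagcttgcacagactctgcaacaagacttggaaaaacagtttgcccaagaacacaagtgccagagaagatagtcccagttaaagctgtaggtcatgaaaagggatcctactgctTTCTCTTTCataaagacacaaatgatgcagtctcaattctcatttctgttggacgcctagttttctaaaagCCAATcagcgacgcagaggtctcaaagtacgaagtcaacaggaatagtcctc
B2m promoter window, chr2:122147437-122147686, strand +: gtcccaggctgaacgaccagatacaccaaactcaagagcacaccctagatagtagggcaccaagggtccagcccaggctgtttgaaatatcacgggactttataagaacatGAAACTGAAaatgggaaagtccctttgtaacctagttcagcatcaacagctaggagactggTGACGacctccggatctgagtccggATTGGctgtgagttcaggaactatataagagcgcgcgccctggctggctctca
Tap1 promoter window, chr17:34187306-34187555, strand +: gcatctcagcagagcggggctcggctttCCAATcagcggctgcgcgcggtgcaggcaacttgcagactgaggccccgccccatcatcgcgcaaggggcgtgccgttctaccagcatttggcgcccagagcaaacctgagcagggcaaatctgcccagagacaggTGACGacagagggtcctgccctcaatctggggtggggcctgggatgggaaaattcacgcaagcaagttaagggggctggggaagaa
Psmb8 promoter window, chr17:34197945-34198194, strand +: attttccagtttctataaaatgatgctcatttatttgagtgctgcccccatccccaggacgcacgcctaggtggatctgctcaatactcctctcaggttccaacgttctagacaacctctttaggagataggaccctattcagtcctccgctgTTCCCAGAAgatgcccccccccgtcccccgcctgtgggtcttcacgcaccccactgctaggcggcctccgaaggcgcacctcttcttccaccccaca
GGGATTCCC stood in the windows of *H2-K1* and *H2-D1*, and in 0.301% of all 32851 windows. GAAANNGAA matched in *B2m* and *H2-T23*, against 7.13% of all windows, and TTCNNNGAA in *Psmb8* alone, against 7.02%. TGACG was found in 5 of the 8 windows (*H2-K1*, *H2-D1*, *B2m*, *Tap1* and *Psmb9*) and in 17.8% of all, and CCAAT in 7 of 8 and in 33.8% of all. The *Tap1* and *Psmb9* windows share 225 bases on opposite strands, so their matches are not separate. A match is only a run of letters, and no binding was measured. A window without a match may still hold such an element in other letters.

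The heavy and light chains were abundant in tumor-like cells. *H2-K1*, a classical heavy chain, stood at 2012 CPM (interval 1995 to 2030) in UT tumor-like cells and 2140 in UT immune cells, and at 2006 and 2007 CPM in BUP. *H2-D1*, the other classical heavy chain counted here, stood at 2945 CPM in tumor-like and 3425 in immune cells of UT, and at 3006 and 3241 in BUP. *B2m*, the light chain of all class I molecules, stood at 1751 and 2557 CPM in UT and at 1671 and 2284 in BUP. Tumor-like *H2-K1* was thus 94.1% of the immune level in UT and 99.9% in BUP. For *H2-D1* the log2 ratio of tumor-like over immune cells was -0.22 in UT and -0.11 in BUP, and the latter became 0.00591 with monocyte-like and macrophage-like cells as the reference.

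The genes that make and load the peptides lay further below the immune level. *Psmb8*, an immunoproteasome subunit, stood at 197 CPM in tumor-like and 651 in immune cells of UT, 30.3% of the immune level, and at 176 and 628 CPM in BUP, 28.0%. *Psmb9*, its partner subunit, stood at 127 and 321 CPM in UT and at 112 and 335 in BUP. *Tap1*, of the peptide transporter, stood at 72.8 and 193 CPM in UT and at 63.7 and 169 in BUP. These genes had log2 ratios of -1.72 and -1.84 for *Psmb8*, -1.34 and -1.58 for *Psmb9*, and -1.41 and -1.41 for *Tap1*.

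*H2-T23*, which encodes Qa-1, a nonclassical heavy chain that engages NK cell receptors, had the widest gap in UT, at 112 CPM in tumor-like and 475 in immune cells of UT and at 130 and 434 in BUP (log2 -2.09 and -1.74). *Nlrc5*, the transactivator of class I genes, stood at 24.3 and 53.3 CPM in UT and at 22.4 and 55.0 in BUP (log2 -1.13 and -1.29). *Tap2*, the other subunit of the transporter, was closer to the immune level at 103 and 137 CPM in UT and at 102 and 135 in BUP. *Tapbp* was likewise closer, at 175 and 257 CPM in UT and at 165 and 219 in BUP.

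In each library 5 of the 10 genes (*H2-T23*, *Tap1*, *Psmb8*, *Psmb9* and *Nlrc5*) were lower in tumor-like cells by at least 1 on the log2 scale, as were 21.9% of all genes tested in UT and 20.9% in BUP. Genes tested had at least 100 UMIs over both groups compared. The median log2 ratio of the 10 was -0.845 in UT and -0.871 in BUP, beside 0.175 and 0.168 for all genes. The standard subunits went both ways. *Psmb6* was lower in tumor-like cells (-0.63 in UT and -0.50 in BUP), while *Psmb5* (0.49 and 0.35) and *Psmb7* (0.20 and 0.28) were higher. None of Psmb5, Psmb6 and Psmb7 passed that fold (0 of 3, median 0.199 in UT and 0.277 in BUP), nor did the shared core subunits Psma1 to Psma7 and Psmb1 to Psmb4 (0 of 11, median -0.0928 and 0.00869). Of 19 other class I pathway genes 3 passed it in UT and 4 in BUP, among them *H2-Q7* at -2.70 and -3.22, while *H2-Q4*, another nonclassical heavy chain, was higher in tumor-like cells at 0.33 and 0.35. All 5 class II genes, which serve presentation to CD4+ T cells, were lower, with medians of -7.93 and -9.25. Genes that mark immune cells alone, such as *Tyrobp* and *Lyz2*, stood in tumor-like cells at 0.550% of their immune level in UT and 0.316% in BUP, far below the percentages of the class I genes.

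**Figure D1:**
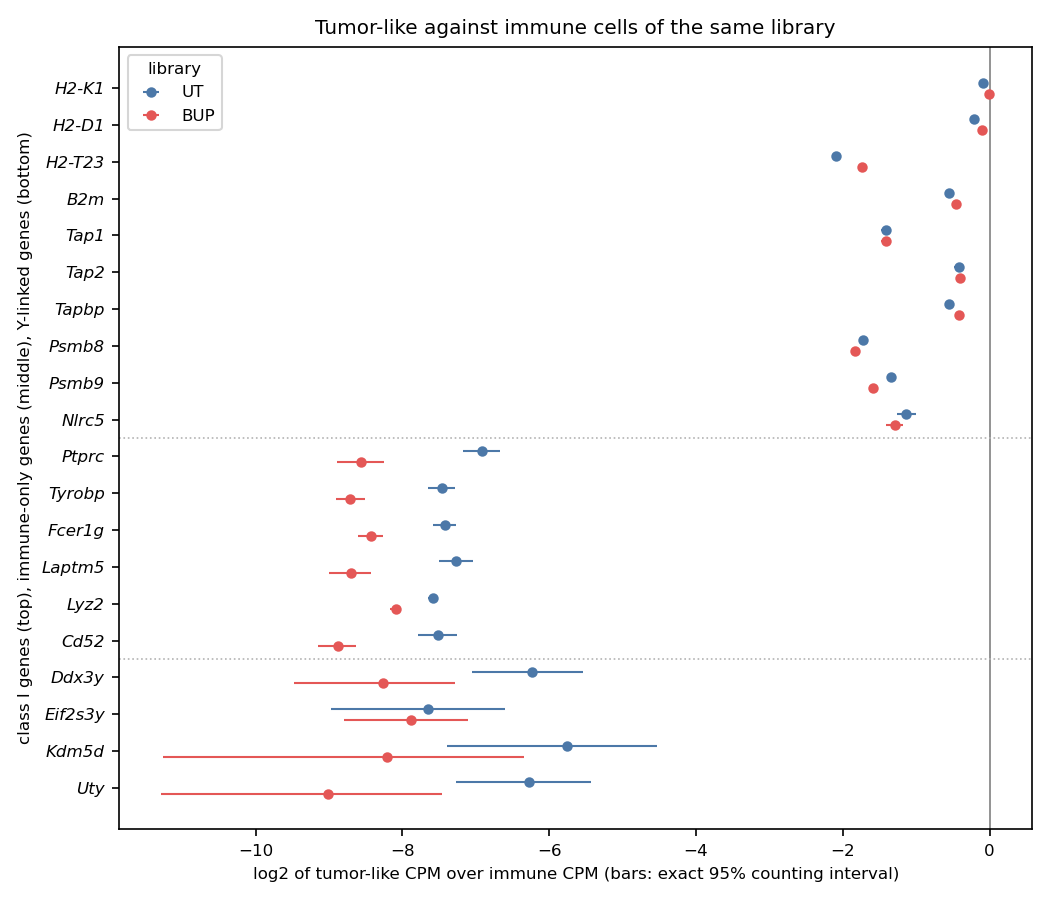
The log2 ratio of tumor-like over immune CPM (horizontal axis) for the 10 class I genes, the immune-only genes and Y-linked genes in UT and BUP, with exact 95% counting intervals. *H2-K1* and *H2-D1* lie no lower than -0.22, *H2-T23* lies at -2.09 and -1.74 and *Psmb8* at -1.72 and -1.84, and the immune-only and Y-linked genes lie far to the left.

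Median depth was 18721 UMIs per cell in tumor-like and 6889 in immune cells of UT, and 16711 and 6675 in BUP. Counts in single cells gave the same order after cells were thinned to 2000 UMIs so that depth was equal. CPM and thinned counts both give a gene's share of a cell's UMIs. They do not show that a tumor-like cell held fewer UMIs of a gene in all than an immune cell. Cells with fewer UMIs were left out, among them many immune cells, of which 4596 stayed in UT and 3179 in BUP. The summed UMIs of *H2-K1*, *H2-D1* and *B2m* had a median of 14 (quartiles 9 and 19) in 1061 tumor-like cells of UT and 13 (9 and 18) in 2348 of BUP. In the immune cells it was 15 (11 and 21) and 15 (10 and 20). Cells with none of the 3 made up 0.660% of tumor-like cells in UT and 0.809% in BUP. The other 7 genes together had a median of 1 UMI in tumor-like cells of each library and 4 in immune cells. *Psmb8* had a UMI in 31.3% of thinned tumor-like cells in UT and 27.3% in BUP, against 66.1% and 63.9% of immune cells. *Tap1* had one in 11.8% and 11.4% of thinned tumor-like cells (61.7% and 53.3% before thinning), against 30.1% and 26.0% of immune cells. In erythroid-like cells, which should lack *Tap1*, 0 of 6 thinned UT cells and 0 of 16 thinned BUP cells had a UMI, so few that the background share is poorly known.

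Across cell classes the genes varied to very different degrees. Over 20 classes the highest level of *H2-K1* was 3.33 times the lowest in UT and 4.59 times in BUP, and that of *H2-D1* 3.42 and 4.97 times. *Tapbp* had a like range of 3.02 and 3.61 times. The immunoproteasome subunits ranged most, by 39.1 and 46.3 times for *Psmb8* and by 47.5 and 82.4 times for *Psmb9*. *H2-K1*, *H2-D1*, *B2m*, *Tapbp* and *Psmb8* were highest in migratory dendritic cell (DC)-like cells, where *H2-K1* reached 3306 CPM in UT and 3003 in BUP and *Psmb8* reached 1423 and 1104. *Tap1*, *Tap2* and *Psmb9* were highest in cDC1-like cells, the DC kind known for presenting outside antigens on class I. There *Tap1* stood at 516 and 479 CPM and *Psmb9* at 935 and 1030. The chains were not high in cDC1-like cells. Their thinned cells had a median of 11 UMIs of *H2-K1*, *H2-D1* and *B2m* in UT and 12 in BUP, beside 15 and 15 in immune cells. *H2-T23* was highest in Treg and gamma-delta T-like cells at 804 and 679 CPM. Neighbors in these orders often could not be told apart, since the intervals of 17 to 24 of 24 neighboring pairs overlapped, depending on the gene.

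**Figure D2:**
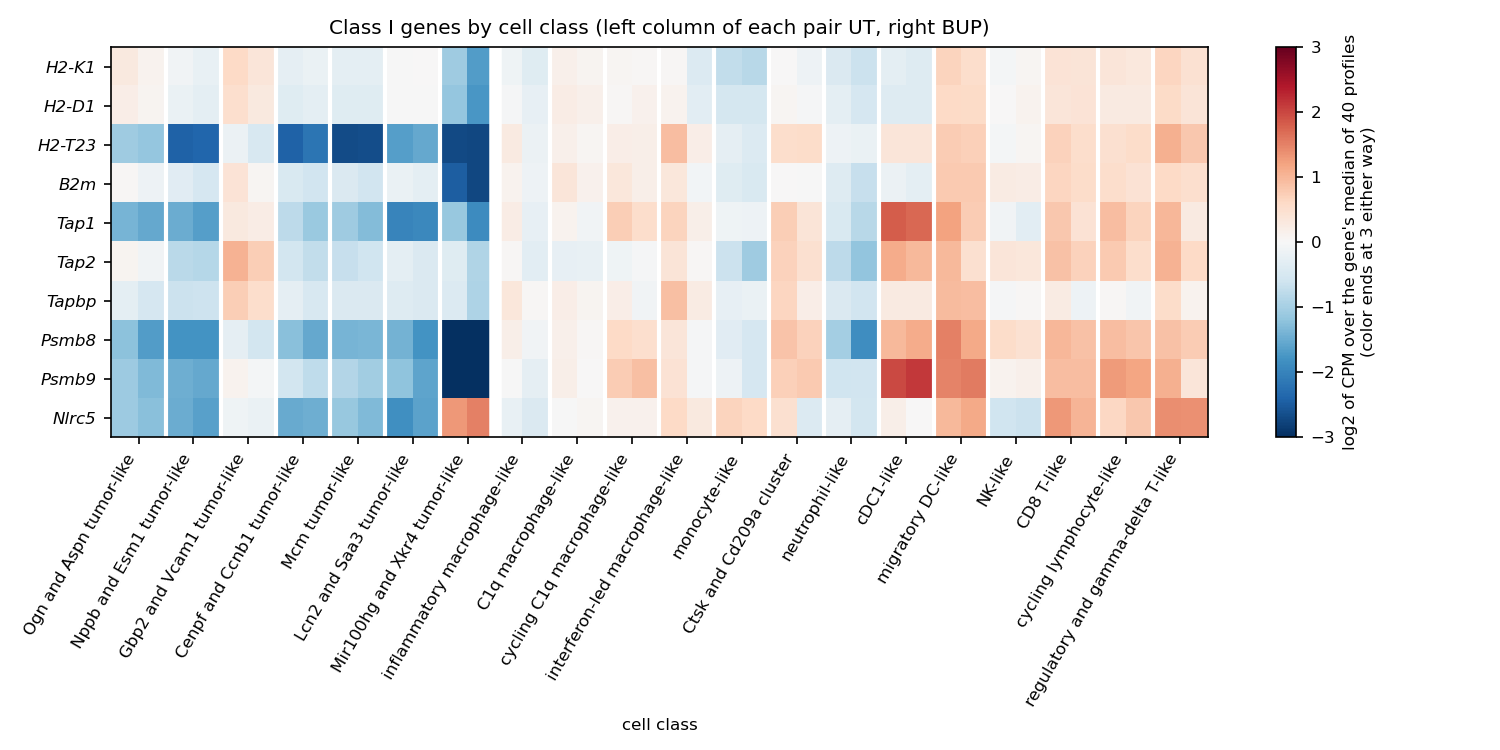
Color gives the log2 of each gene's CPM over its median of 40 profiles, for 20 cell classes with UT on the left and BUP on the right of each pair; the scale ends at 3 either way. The migratory DC-like and CD8 T-like columns are high for most genes, and the cDC1-like column is highest for *Tap1*, *Tap2* and *Psmb9*. The Mir100hg and Xkr4 tumor-like column is lowest for *H2-K1*, *H2-D1*, *H2-T23*, *B2m*, *Psmb8* and *Psmb9*.

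CD8 T-like cells, 324 in UT and 494 in BUP, lay above the level of all immune cells in 9 of the 10 genes, all but *Tapbp*. *H2-K1* stood there at 2738 and 2709 CPM, *B2m* at 3300 and 3124, *Psmb8* at 994 and 919, and *Nlrc5* at 117 and 97.0. Monocyte-like cells had less *H2-K1*, at 1234 and 1168 CPM. Over the 40 profiles *H2-K1* and *H2-D1* varied together (Pearson r = 0.979 on log2(CPM + 10)), as did *Psmb8* and *Psmb9* (0.959). *Psmb8* was closest to the mean of the other 9 (0.932) and *Nlrc5* farthest (0.374). The profiles share libraries and depth, so these are descriptions. Of 5114 genes outside the lists, those most like the mean of the 10 were *Ifi35* (0.885), *H2-Q5* (0.870), *Ddt* (0.860), *Rab4b* (0.850), *Sp110* (0.850), *H2-K2* (0.849), *Phf11b* (0.841), *Arrdc1* (0.834), *Abracl* (0.833) and *Mif4gd* (0.831). *H2-Q5* and *H2-K2* are class I-like copies whose reads may be shared with the heavy chains.

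Among 7 tumor-like states, a state led by *Gbp2* and *Vcam1* had the highest level of 9 of the 10 genes in both libraries, all but *Nlrc5*. *Gbp2* and other genes that led it (*Ly6a*, *Gbp3* and *Igtp*) are known targets of interferon. It held 107 tumor-like cells in UT, 9.94% (interval 8.22 to 11.9), and 244 in BUP, 10.3% (9.10 to 11.6). *H2-T23* stood there at 341 CPM in UT and 275 in BUP, against 59.0 to 183 in the other states of UT and 58.0 to 173 of BUP. *Tap1* stood at 179 and 171 CPM, *Tap2* at 256 and 207, *Tapbp* at 356 and 307, *Psmb8* at 413 and 340, and *Psmb9* at 257 and 229. *H2-K1* reached 3141 and 2683 CPM, and *B2m* 2800 and 2192, both above the immune level in UT.

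Against all other tumor-like cells, 10 of 10 genes were higher in the *Gbp2* and *Vcam1* state by at least 0.5 on the log2 scale in UT, where 11.6% of genes tested were, and 7 of 10 in BUP, where 6.26% were. The 3 short of it in BUP were *H2-K1* (0.47), *H2-D1* (0.44) and *B2m* (0.44). The widest differences were those of *H2-T23* in UT (1.88, interval 1.75 to 2.01; 1.27 in BUP) and *Tap1* in BUP (1.71, interval 1.59 to 1.83; 1.49 in UT). The median over the 10 was 1.15 in UT and 1.07 in BUP, beside -0.0403 and -0.0152 for all genes. Of the other class I pathway genes 13 of 17 tested were past that fold in UT and 10 of 19 in BUP, including *Psmb10* (1.75 and 1.41), the third immunoproteasome subunit, and *Tapbpl* (1.36 and 1.33), a tapasin relative. None of the 3 standard partner subunits or the 11 shared core subunits was past it. *Irf1*, a transcription factor of the interferon gamma response, was higher by 1.94 and 1.52. Because the state was found by clustering these same cells, the comparison is a description and no test. *Ifng* had 0 UMIs in the state, and immune-only genes stood there at 0.526% of their immune level in UT and 0.316% in BUP.

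The Mir100hg and Xkr4 state, with 78 cells in UT and 106 in BUP, was lowest for the chains and the immunoproteasome. *B2m* stood there at 380 and 318 CPM, *H2-K1* at 993 and 654, *Psmb8* at 36.4 and 23.9, and *Psmb9* at 19.7 and 12.5. The standard subunits were lower there too, so low levels in this state were not particular to class I genes. *Psmb5* stood at 27.5 and 22.7 CPM against 222 and 202 in all tumor-like cells. *Psmb6* stood at 16.7 and 18.2 against 173 and 164, and *Psmb7* at 78.7 and 84.1 against 115 and 104. *Nlrc5* went the other way, at 116 CPM in UT and 136 in BUP. *Tap1* was lowest instead in the Lcn2 and Saa3 state, at 37.2 and 38.5 CPM. The thinned cells of the Mir100hg and Xkr4 state had a median of 5 UMIs of *H2-K1*, *H2-D1* and *B2m* in UT and 3 in BUP, and 6.41% and 17.6% of them had none. Median depth was lower in this state, at 11560.5 and 6979 UMIs per cell against 18721 and 16711 in all tumor-like cells. The part of depth in these levels was not tested beyond the thinning. Genes leading the state included *Mecom*, *Mir100hg*, *Magi1* and *Xkr4*, and whether its cells were intact was not tested.

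**Figure D3:**
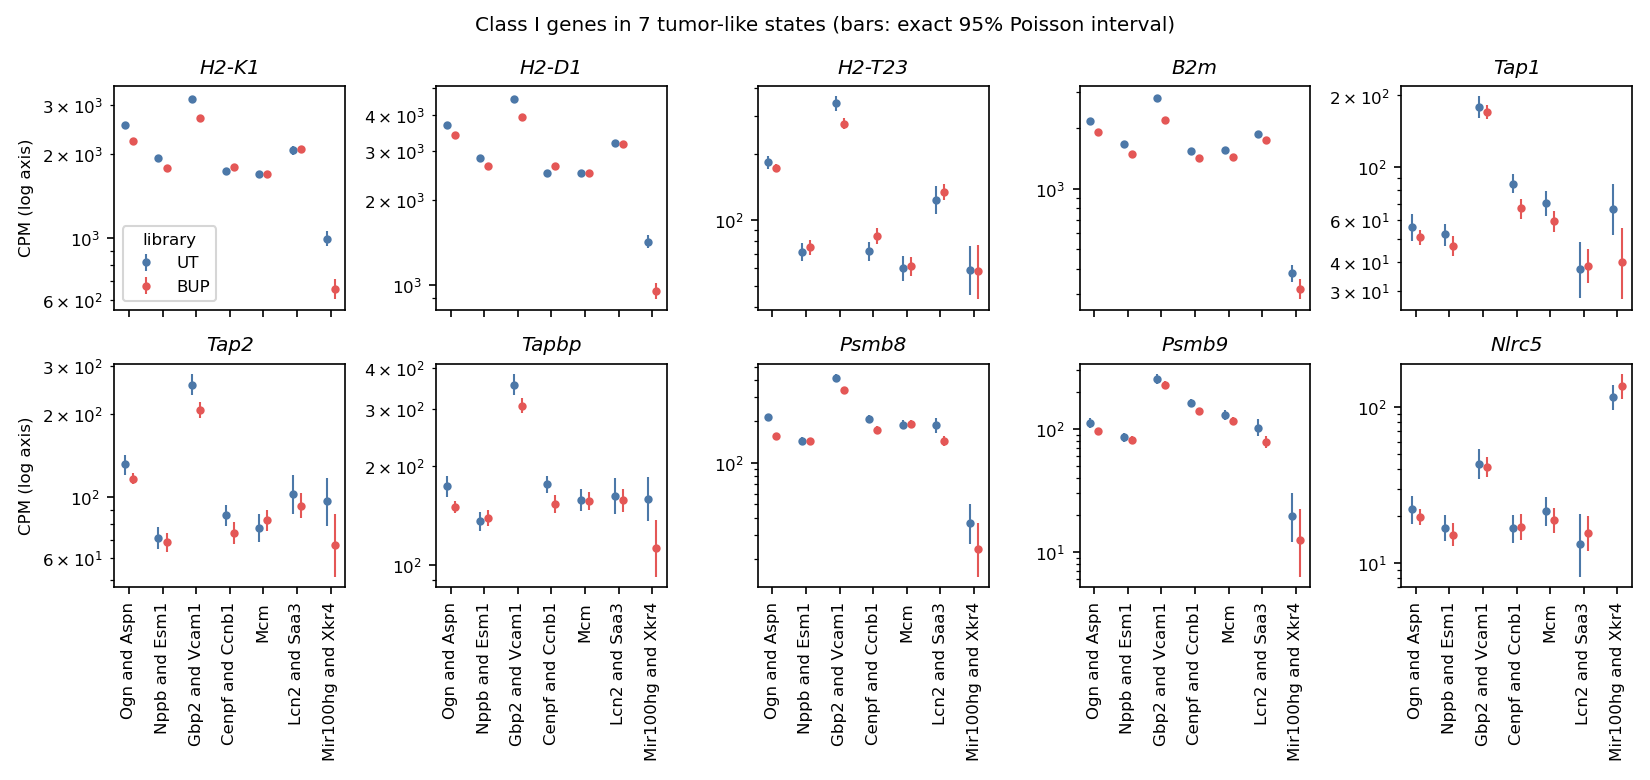
CPM of each gene (vertical log axis) in 7 tumor-like states of UT and BUP, with exact 95% Poisson intervals. The Gbp2 and Vcam1 state is highest for every gene but *Nlrc5*, which is highest in the Mir100hg and Xkr4 state (116 CPM in UT, 136 in BUP).

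The balance of immunoproteasome to standard subunits was lower in tumor-like cells than in the macrophage-like and T-like classes. UMIs of *Psmb8* per UMI of *Psmb5*, which it replaces, were 0.889 (interval 0.855 to 0.923) in tumor-like cells of UT and 0.871 in BUP. The ratio was 3.63 and 3.05 in macrophage-like cells, 6.55 and 5.45 in CD8 T-like cells, and 10.2 and 6.96 in migratory DC-like cells. After thinning the last pair stood at 11.9 and 11. In the *Gbp2* and *Vcam1* state it was 2.17 and 1.81. *Psmb9* per *Psmb6* was 0.733 and 0.684 in tumor-like cells, 0.968 and 0.912 in macrophage-like cells and 4.06 and 3.91 in cDC1-like cells. *Psmb10* per *Psmb7* was 1.22 and 1.41 in tumor-like cells, 3.69 and 3.28 in the *Gbp2* and *Vcam1* state, and 0.263 and 0.297 in the Mir100hg and Xkr4 state. The other pairs were not low in the latter state. *Psmb8* per *Psmb5* was 1.32 there in UT (interval 0.787 to 2.24) and 1.05 in BUP (0.542 to 2.04). *Psmb9* per *Psmb6* was 1.18 (0.585 to 2.39) and 0.688 (0.288 to 1.58). These ratios compare UMIs of genes of unlike length and are read only between cell classes.

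**Figure D4:**
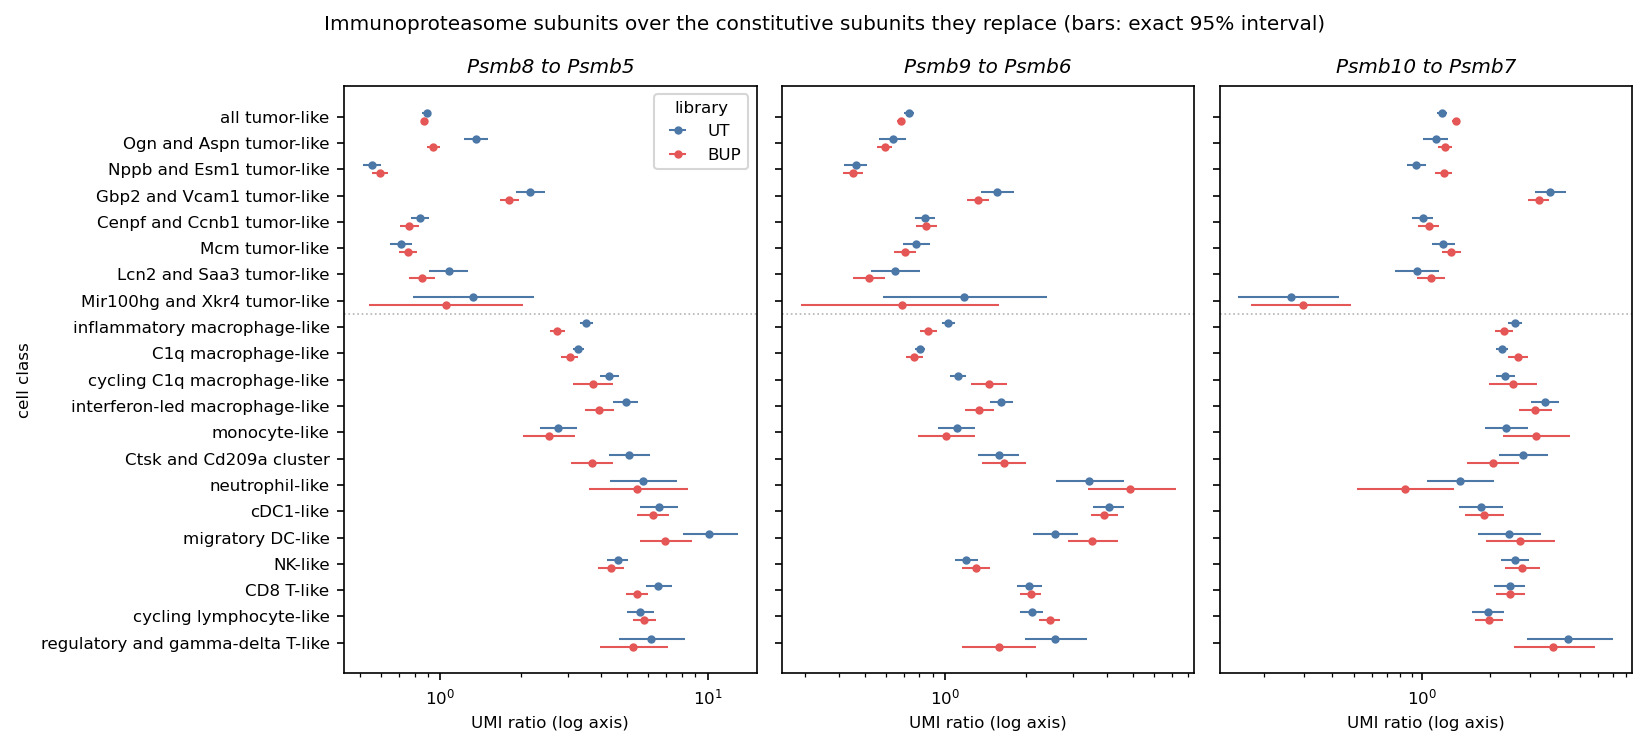
UMI ratio (horizontal log axis) of each immunoproteasome subunit to the standard subunit it replaces, by cell class, in UT and BUP with exact 95% intervals. For *Psmb8* to *Psmb5*, all tumor-like cells lie below 1 (0.889 and 0.871) and CD8 T-like cells lie at 6.55 and 5.45.

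The comparison of BUP with UT asked whether the gel went with other levels of these genes within a class. In all tumor-like cells 0 of 10 genes were lower by at least 0.5 on the log2 scale and 0 of 10 higher, with 5.84% and 2.53% of all genes tested past the fold in each direction. The median of the 10 was -0.0761, beside -0.0683 for all genes. *H2-T23* was higher in BUP (112 to 130 CPM, log2 0.22, interval 0.15 to 0.28). Within the 7 states its log2 ratio ran from -0.31 to 0.24, with 3 of 7 states below 0 and a mean of 0.00476. In the largest state, led by *Ogn* and *Aspn*, it stood at 183 CPM in UT and 173 in BUP. That state held 29.1% of tumor-like cells in UT and 44.2% in BUP, and the part of this shift was not tested. *Psmb8* was lower (197 to 176 CPM, -0.17), as was *Psmb9* (127 to 112 CPM, -0.18), and *Psmb9* and *B2m* were below 0 in 7 of 7 states. *H2-D1* (0.03), *B2m* (-0.07) and *Tap1* (-0.19) changed sign under another scale or after thinning, as *H2-D1* at -0.0263 and *Tap1* at 0.00600 in thinned cells, and *B2m* at 0.00107 under median-ratio scaling. In the *Gbp2* and *Vcam1* state all 10 genes were below 0 and 0 passed the fold in either direction, beside 3.19% lower and 2.11% higher among all genes, and their median was -0.222 beside -0.0425. *B2m* stood there at 2800 CPM in UT and 2192 in BUP (-0.35), and *Psmb9* (-0.16) became 0.143 in thinned cells.

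The Mir100hg and Xkr4 state differed more between the libraries. Of its 8 genes tested 5 were lower in BUP by at least 0.5, where 13.8% of all genes were, and 0 higher, where 7.52% were. The 5 were *H2-K1* (-0.60, interval -0.75 to -0.45), *H2-D1* (-0.58), *Tap1* (-0.75), *Tap2* (-0.52) and *Tapbp* (-0.50), and the median was -0.512 beside -0.0380 for all genes. *Nlrc5* stood at 0.23 with an interval of -0.15 to 0.61, and at -0.0314 with mean log-normalized values. *H2-T23* (-0.03, interval -0.59 to 0.54) became 0.0124 under median-ratio scaling. Median depth in the state was lower in BUP, and after thinning the 3 genes that still had 100 UMIs stood at -0.99 for *H2-K1*, -0.97 for *H2-D1* and -0.56 for *B2m*.

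Macrophage-like cells led by interferon-induced genes (*Rsad2*, *Cmpk2*, *Ifit2* and *Mx1*), 352 in UT and 204 in BUP, had the median farthest from 0 among the macrophage-like and lymphoid classes compared. All 10 genes were below 0 there, with a median of -0.441 beside -0.0559 for all genes. *H2-T23* went from 737 CPM in UT to 440 in BUP (log2 -0.74, interval -0.85 to -0.64), and *Tapbp* from 398 to 254 (-0.65, interval -0.79 to -0.51). These were the 2 genes of 10 lower by at least 0.5, beside 7.79% of all genes, and 0 were higher, beside 3.84%. *Tap1* went from 232 to 166 CPM, *Psmb9* from 323 to 234, *B2m* from 2683 to 1994, and *H2-K1* from 2122 to 1550. Of 16 other class I pathway genes tested 6 were lower past the fold, all of them nonclassical heavy chains (*H2-Q4*, *H2-Q6*, *H2-Q7*, *H2-T22*, *H2-T24* and *H2-M3*). The partner and shared core subunits had medians of -0.192 and -0.245, with none past the fold. *Socs1*, a feedback inhibitor of interferon signaling, stood at -0.74. Median depth was 7834.5 UMIs in UT and 10719.5 in BUP, and its part was not tested beyond thinning, after which 4 genes were past the fold. With mean log-normalized values 1 gene was past it and the median was -0.277. The class was defined by interferon-induced genes on the same cells, and how far its makeup differed between libraries was not tested.

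Inflammatory macrophage-like cells, 1301 in UT and 825 in BUP, were below 0 for all 10 genes too, with a median of -0.267 beside -0.0675. *H2-T23* went from 467 to 341 CPM (-0.45, interval -0.52 to -0.39), and *Tap1* from 170 to 123 (-0.47). None of the 10 passed 0.5 in either direction, where 3.76% of genes were lower and 2.03% higher. In C1q macrophage-like cells the differences were smaller, with a median of -0.111 beside -0.0318 (-0.041 after thinning and -0.013 with mean log-normalized values), and 0 of 10 past the fold, beside 3.45% lower and 4.16% higher. *H2-K1* (-0.08) and *H2-D1* (-0.08) changed sign there, *H2-K1* to 0.0441 and *H2-D1* to 0.0276 under the mean of log-normalized values, and *H2-D1* to 0.0181 after thinning. The class II genes went the other way in the C1q class, with 5 of 5 higher in BUP and a median of 0.755, and *Cd74*, the class II invariant chain, at 3533 CPM in UT and 5656 in BUP. Class II lay below 0 as class I did in the interferon-led class, in 4 of 4 genes tested (median -0.352). In the inflammatory class 4 of 5 class II genes were below 0 (median -0.189). In cycling C1q macrophage-like cells 0 of 4 class II genes tested were below 0, with a median of 0.439.

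In CD8 T-like cells 0 of 10 genes passed the fold, beside 6.7% of all genes lower and 2.01% higher. Of the 10 genes 9 were below 0, with a median of -0.138 beside -0.0690. *Tapbp* went from 252 to 191 CPM (-0.40, interval -0.57 to -0.24) and *Tap1* from 256 to 197 (-0.38), while *H2-D1* (0.06) and *Psmb9* (455 and 455 CPM) were near level. Markers of myeloid and antigen-presenting cells were also lower in these cells of BUP, with *Lyz2* at 504 CPM in UT and 225 in BUP and 4 of 4 class II genes tested past the fold (median -1.21), and their part in these values was not tested. In NK-like cells, 493 in UT and 344 in BUP, 5 of 10 were below 0, the median was 0.00326 beside -0.0828, and 0 passed the fold, beside 6.55% lower and 1.52% higher. *H2-K1* was higher in NK-like cells of BUP, at 1998 CPM in UT and 2170 in BUP. *Ifng*, the cytokine itself, stood at 32.9 CPM in UT immune cells and 58.5 in BUP, but at 324 and 323 in CD8 T-like cells, whose number in the libraries differed.

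**Figure D5:**
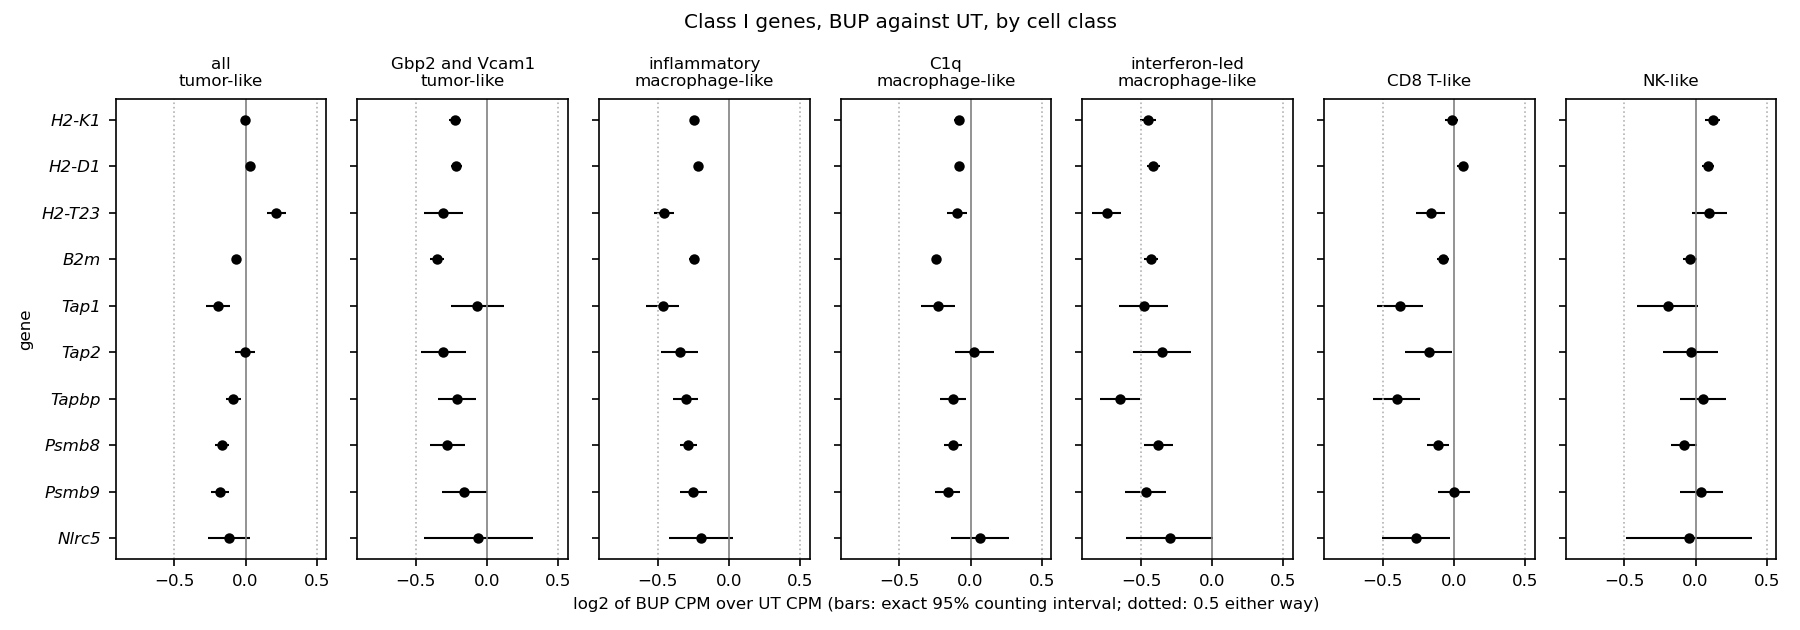
The log2 ratio of BUP over UT CPM (horizontal axis) for the 10 genes in 7 cell classes, with exact 95% counting intervals and dotted lines at 0.5 either way. Only *H2-T23* and *Tapbp* in interferon-led macrophage-like cells lie past a dotted line. The panel of all tumor-like cells stays within 0.22 of 0, and that of the Gbp2 and Vcam1 state reaches -0.35.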

How the data were processed

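The authors deposited gene-by-cell UMI counts, 1 matrix for each library, made from 5′ v2 10x libraries with Cell Ranger 8.0.1 by the submitters' processing notes, on GRCm39. The notes also name Seurat 5.0.1. The 10 members and the gene lists were chosen with earlier results of these data known. Here a cell needed over 100 UMIs, of them under 20% mitochondrial, to stay (the UT matrix held 7556 barcodes and 83228442 UMIs, the BUP matrix 7221 and 89918925) and clustered with Seurat 5.3.0 in R 4.3.3 (2000 variable genes, class I genes left out, 20 principal components, resolution 0.5). A cluster with *Ptprc* in at least 30% of cells was called immune. Scrublet in Scanpy 1.11.5 called 32 UT cells (0.447%, under 0.5%, so it has not worked there) and 158 BUP cells (2.33%), and no doublets were removed. Counts were summed per class and library and scaled to CPM, with exact Poisson intervals for levels and exact conditional intervals for ratios (scipy 1.17.1). No test was possible with 1 library per group. The ratio step was checked on simulated data. The named genes are the members, the fixed lists and the 10 genes most like the members by Pearson correlation, among genes with at least 200 UMIs and 100 CPM in 1 profile. Some planned results are not reported here. Alternatives changed the cell filter, clustering, doublets, scale, thinning, gene filter, fold and reference class.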

Additional observations from a re-analysis of the deposited data

Results flagged for a closer look

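A set of 3 class I genes had opposite directions in different cell classes, with counting intervals that exclude 0. For *H2-K1* the BUP over UT log2 ratio was 0.12 (interval 0.07 to 0.17) in NK-like cells and -0.45 (-0.51 to -0.40) in interferon-led macrophage-like cells, a difference of 0.572. For *H2-D1* the same classes gave 0.09 and -0.41, a difference of 0.502. For *H2-T23* all tumor-like cells gave 0.22 and interferon-led macrophage-like cells -0.74, a difference of 0.957. Within the 7 tumor-like states the *H2-T23* ratio had a mean of 0.00476, with 3 states below 0, so the pooled 0.22 was not shared by the states. Each pair is the widest for its gene among 7 classes, where 21 pairs in these 3 genes had opposite directions. Some of the 21 set all tumor-like cells against the Gbp2 and Vcam1 state, which is part of them. Of these pairs 7 rest on a ratio that changes sign under an alternative (*H2-D1* in all tumor-like cells, or *H2-K1* or *H2-D1* in C1q macrophage-like cells). The difference was not tested, since each group has 1 library.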

How the results depend on the processing

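No paired analysis was possible because each group has 1 library. Of 51 BUP over UT log2 ratios whose counting interval did not hold 0, the direction held in all under most alternatives, in 47 after thinning to 2000 UMIs, 49 with the mean of log-normalized values and 50 with median-ratio scaling. Of 19 tumor-like over immune ratios, 1 changed sign, with monocyte-like and macrophage-like cells as reference. The count of members lower in BUP past the fold was 1 in inflammatory macrophage-like cells under the stricter cell filter and 1 after thinning. In interferon-led macrophage-like cells it was 4 under the stricter filter, resolution 1.0 and thinning, 1 with mean log-normalized values and 0 at a fold of 1.0. Thinning gave 1 in the Gbp2 and Vcam1 state and 1 in CD8 T-like cells. The median member log2 ratio of BUP over UT in all tumor-like cells was -0.0078 with median-ratio scaling and -0.115 after thinning, in inflammatory macrophage-like cells -0.199 with that scaling, in C1q macrophage-like cells -0.041 after thinning and -0.013 with mean log-normalized values, and in interferon-led macrophage-like cells -0.277 with the latter. In the Mir100hg and Xkr4 state, with alternatives chosen after seeing the data, 3 genes were lower past the fold after thinning (of 3 tested, median -0.966), 3 with median-ratio scaling and 3 with mean log-normalized values. The tumor-like over immune median of BUP was -0.737 against monocyte-like and macrophage-like cells. The percent of tumor-like cells with a *Tap1* UMI was 61.7 in UT and 53.3 in BUP unthinned, and 6.47 and 6.81 at 1000 UMIs. After thinning the *Psmb8* to *Psmb5* ratio was 1.07 in UT and 0.990 in BUP tumor-like cells and 3.94 and 2.90 in macrophage-like cells, and *Psmb9* to *Psmb6* was 0.645 in BUP tumor-like cells, 1.09 and 0.841 in macrophage-like cells and 2.28 in BUP CD8 T-like cells. By Spearman correlation 6 of the 10 most similar genes were shared. Sign changes were *B2m* in tumor-like cells at 0.00107 (median-ratio scaling), *H2-D1* at -0.0263 and *Tap1* at 0.00600 (thinned), *Psmb9* in the Gbp2 and Vcam1 state at 0.143 (thinned), *H2-D1* in C1q macrophage-like cells at 0.0181 (thinned) and 0.0276 and *H2-K1* there at 0.0441 (mean log-normalized values), and *H2-D1* of BUP tumor-like over immune cells at 0.00591 (the other reference). The causes were not tested. With the class I genes kept among the variable genes the numbers of clusters were the same. None of these genes was variable in the first clustering of all cells. Whether any was variable when immune and other cells were clustered apart was not recorded. For *Nlrc5* and *Tap2* the intervals of 24 of 24 neighboring pairs of classes overlapped in each library, and the part of depth in this was not tested.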

Other observations

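Classes outside the main comparisons also differed in these genes. Neutrophil-like cells, 623 in UT and 427 in BUP, had *Psmb8* at 248 CPM in UT and 137 in BUP (log2 -0.85, interval -1.14 to -0.57), while *Psmb9* stood at 157 and 159 CPM. The standard subunit *Psmb5* was also lower there (-0.78), the shared core had a median of -0.561, and the *Psmb8* to *Psmb5* ratio was 5.71 and 5.43. In regulatory and gamma-delta T-like cells *Tap1* stood at 291 CPM in UT and 177 in BUP, and *Psmb9* at 496 and 306, while *Cd74*, of antigen-presenting cells, stood at 725 and 207. Fibroblast-like cells, only 15 in UT and 64 in BUP, had *Psmb8* at 148 and 250 CPM and *B2m* at 1135 and 1454, while the immune marker *Lyz2* stood at 51.5 and 418. The part of these markers in the class I values was not tested. Erythroid-like cells, 125 and 114 with a median of 1020 and 1116 UMIs, were lowest for *H2-K1*, at 286 CPM (39 UMIs) in UT and 61.3 (9 UMIs) in BUP. These values have no replicate check.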
